A study of Mus musculus with 5 samples.

Results

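The proteins of the cytosolic ribosome were examined here through the genes that encode them, in sorted cells of the mouse kidney papilla. Array probes were taken by gene name: Rpl or Rps with a number, Rplp0, Rplp1, Rplp2 and Rpsa. The name rule found 136 of 41174 non-control probes. They stood for 80 of the 20256 genes named on the array, 48 of the large and 32 of the small subunit, and 79 of these 80 were tested among 17640 genes. The gene missing from the test was Rpl39l, a paralog of Rpl39, whose signal on replicates 1 to 5 was 0.8 to 2.94 times the negative control probe in GFP+ cells and 1.01 to 6.03 times in GFP- cells.

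The tested cells were GFP+ papilla cells and their counterparts were GFP- papilla cells, both from mice of the H2B-GFP strain at 2 to 3 months of age. Every sample title calls the tissue control kidney papilla. All animals had received doxycycline before birth, so that histone H2B-GFP marked nuclei, and had then been left without it; a cell that divides dilutes the label, and a cell that keeps it is called label-retaining. The labels do not name the promoter that drives the fusion, nor how many animals or cells were pooled for a replicate. The 5 biological replicates had 1 two-colour Agilent array each, and the labels put the GFP+ sample in Cy5 and the GFP- sample in Cy3 throughout, after amplification by global PCR (SuperAmp). Ratios are given as log2 of GFP+ over GFP-. This direction is likely but not settled, and every sign in the text turns if it is the opposite.

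A ribosome joins a small subunit, which reads the messenger RNA, to a large subunit, which forms the peptide bond. Each protein is used mostly in a single copy, and cells make these proteins in matched amounts. Many of their messenger RNAs start with a run of pyrimidines (a 5′ terminal oligopyrimidine tract) through which mTORC1, the growth-controlling kinase complex, sets their translation without a matching change in RNA level. Ribosome production is scaled to growth and is lower in many quiescent cells. Ribosomal protein genes also have many processed copies in the mouse genome, so that a probe can read more than 1 locus.

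The start regions of 6 of these genes are shown because the first 4 have ratios of a single sign on all 5 arrays, described with their values below, and the other 2 open with a pyrimidine tract. Each line runs from 50 bases before to 20 bases after the RefSeq start (GRCm38.p6), and base 51 is the annotated start. They lie at chrX:134585604-134585673 (plus strand) for Rpl36a, chr5:121204451-121204520 (plus strand) for Rpl6, chr17:27635225-27635294 (minus strand) for Rps10, chr12:28635934-28636003 (minus strand) for Rps7, chr11:114668530-114668599 (plus strand) for Rpl38 and chr3:90213629-90213698 (minus strand) for Rps27. Capitals mark CTTTC and CTTCC on the gene's strand and CCGGAAG, the core bound by ETS factors, on either strand (read as CTTCCGG on the other), and CTTCC can overlap CTTCCGG.
Rpl36a: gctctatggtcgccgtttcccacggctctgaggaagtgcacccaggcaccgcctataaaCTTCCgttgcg
Rpl6: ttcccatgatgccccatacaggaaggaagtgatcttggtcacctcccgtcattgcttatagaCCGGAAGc
Rps10: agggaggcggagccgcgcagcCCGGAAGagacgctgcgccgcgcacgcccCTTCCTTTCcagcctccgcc
Rps7: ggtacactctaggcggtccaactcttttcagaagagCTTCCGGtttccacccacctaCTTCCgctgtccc
Rpl38: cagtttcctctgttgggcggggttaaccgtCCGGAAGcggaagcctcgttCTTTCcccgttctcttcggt
Rps27: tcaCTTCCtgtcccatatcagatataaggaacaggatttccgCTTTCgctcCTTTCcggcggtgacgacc

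RefSeq start regions were matched for 60 of the 80 genes, with 72 regions among 32851 in all. A C followed by at least 4 further pyrimidines stood at the annotated start in 18.1% of the regions of ribosomal protein genes and in 2.51% of all regions. The Rps10 transcript opens with 10 pyrimidines, that of Rpl38 with 8 and that of Rps27 with 7. In the 100 bases around the start, CTTTC occurred in 36 of the 72 regions against 12.8% of all, and CTTCC in 44.4% against 19.5%. CCGGAAG occurred on either strand of the 300-base region in 37.5% against 8.86%, and AANATGGC, the core of the YY1 motif, in 20.8% against 6.05%. Among tested genes, the median log2 ratio of the 25 with CCGGAAG was 0.61 and that of the 34 without it 0.06. For CTTTC the medians were 0.52 (31 genes with it) and 0.34 (28 genes without it). The order was the other way for CTTCC, with 0.33 (28 genes with it) and 0.36 (31 genes without it), and for AANATGGC, with 0.04 (11 genes with it) and 0.51 (48 genes without it). These medians are descriptions, and the median SD of a gene between arrays was 2.04.

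Kidney papilla was checked through marker genes. The 6 collecting duct principal cell genes and the 6 thin limb genes were all tested, and so were 4 of 5 intercalated cell genes. Aqp2, Aqp3 and Aqp1, water channels of the collecting duct and the thin descending limb, were above background in both channels on all 5 arrays. Between 59.4% and 72.5% of probes were above background in GFP+ cells and between 57.7% and 75.3% in GFP- cells, where background means under 3 times the negative control probe of that array and channel. The ribosomal protein genes were almost all above it, with 76 to 79 of 80 on single arrays in GFP+ cells and 75 to 80 in GFP- cells. Their median signal on replicates 1 to 5 was 3060, 4480, 2420, 2310 and 341 times the negative control probe in GFP+ cells and 2980, 4490, 920, 1900 and 160 times in GFP- cells, so replicate 5 was the dimmest in both. In sorted cells, fewer cells of a type and less RNA per cell cannot be told apart.

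By the median, ribosomal protein genes leaned towards higher ratios in GFP+ cells, by less than the spread between arrays. No single gene passed the test. Limma called 0 of 79 ribosomal protein genes at an adjusted p of 0.05, and 0 of 17640 genes (0%), with a lowest adjusted p of 0.827 in both. At an unadjusted p under 0.05 limma gave 4 of the 79, or 5.06%, where all genes gave 882, or 5%. The 4 were Rpl6, Rplp1 and Rps7 with means above 0 and Rps3a with a mean below 0. The mean ratio was above 0 for 50 of 79 ribosomal protein genes (63.3%) and for 49.8% of all genes. The median of the means was 0.50 for ribosomal protein genes and -0.0033 for all genes. A mean of at least 2-fold was reached by 37 of 79 (24 above 0 and 13 below), or 46.8%, against 25.8% of all genes. The genes of the mitochondrial ribosome taken by name (Mrpl or Mrps with a number), 75 of them tested, had a like share, 45.3%.

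The lean came from some arrays more than others. The median over the 79 genes was -0.08, 0.24, 1.19, 0.64 and 0.13 on replicates 1 to 5, a mean of 0.42 ± 0.50 (SD, n = 5). The median over all genes was 0.09, 0.07, 0.04, 0.07 and -0.0045. The mean over the 79 genes was 0.49, -0.45, 1.38, 0.50 and -0.50, below 0 on replicates 2 and 5. Replicate 3 stood highest and replicate 1 was the only array with a median below 0. The ratio was above 0 for 45.6%, 53.2%, 68.4%, 64.6% and 50.6% of ribosomal protein genes on replicates 1 to 5, against 52.9%, 52.8%, 51.6%, 52.2% and 49.8% of all genes. A ratio of at least 2-fold either way was found on replicates 2 to 5 for 63.3%, 69.6%, 55.7% and 64.6% of ribosomal protein genes, against 47.9%, 42%, 48% and 48.1% of all genes. On replicate 1 the order was the other way, 40.5% against 49.6%.

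**Figure D1:**
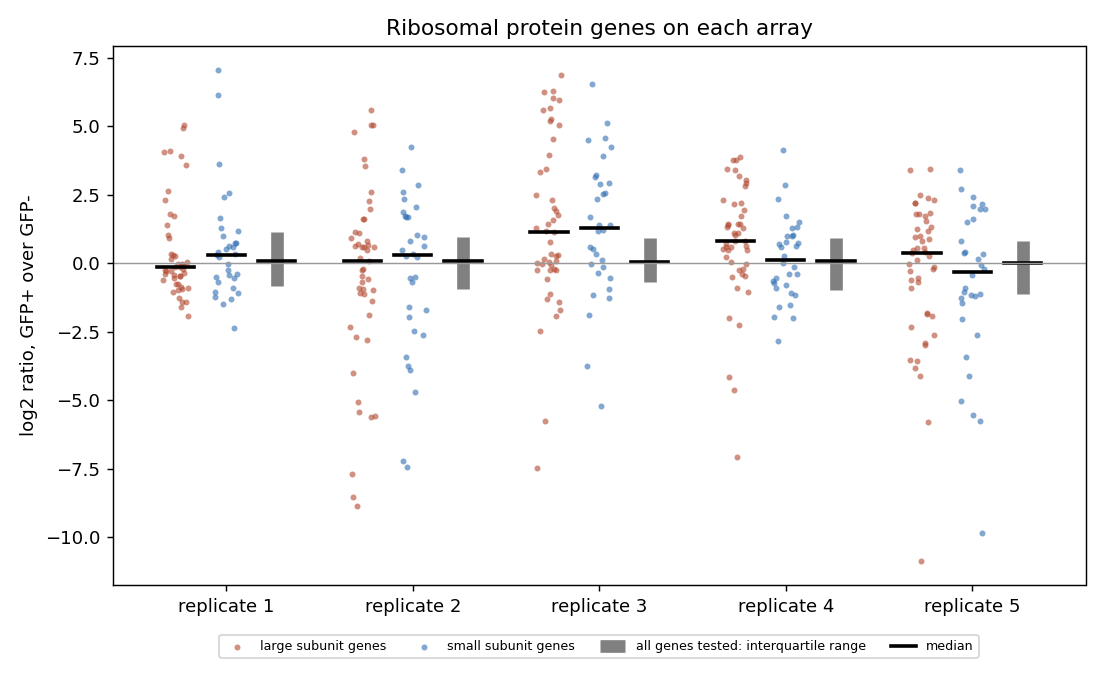
Each point is the log2 ratio of GFP+ over GFP- cells (vertical axis) for 1 ribosomal protein gene, by replicate (horizontal axis), for 47 large and 32 small subunit genes; black lines are medians and grey bars are the interquartile range of all genes tested. Replicate 3 has the highest medians (1.12 for the large and 1.30 for the small subunit), and points reach -10.87 on replicate 5.

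Ribosomal protein genes spread more widely than all genes on replicates 2, 3 and 5 and less widely on replicates 1 and 4. The SD across the 79 genes was 1.87, 3.17, 2.88, 1.95 and 2.75 on replicates 1 to 5, against 2.17, 2.42, 2.13, 2.06 and 1.76 across all genes. The SD of a gene over the 5 arrays had a median of 2.04 for ribosomal protein genes and 1.45 for all genes. It was 2.52 for the genes of the mitochondrial ribosome, and from 1.90 to 2.58 in the lists of other translation genes described below. Among genes above background in both channels on all 5 arrays, the median SD was 2.08 for 70 ribosomal protein genes and 1.44 for 11211 genes. This filter does not match genes by brightness, and the gap at matched signal was not tested. The medians also moved with the offset added to the intensities. With an offset of 0 they were 2.10 for ribosomal protein genes and 1.61 for all genes tested. With an offset of 200 they were 1.96 and 1.23. Correlations between arrays across the 79 genes ran from -0.269 to 0.248, a description in which all pairs share probes and, per the labels, dye orientation. Pairs with replicate 1 ran from -0.269 to -0.043 and the other pairs from -0.126 to 0.248. Across all 17640 genes, pairs with replicate 1 ran from -0.156 to -0.060 and the other pairs from 0.053 to 0.201. Whether every array holds the labelled orientation was not tested.

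**Figure D2:**
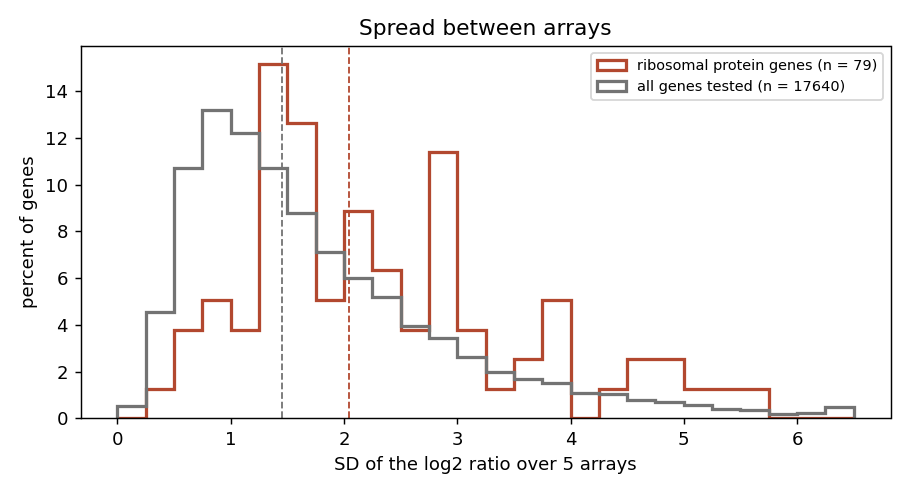
The horizontal axis is the SD of a gene's log2 ratio over 5 arrays and the vertical axis the percent of genes, for 79 ribosomal protein genes and 17640 genes; dashed lines are the medians, 2.04 and 1.45, and the last bin also holds all larger SDs of all genes. The line of the ribosomal protein genes lies to the right of that of all genes.

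Single channels moved between arrays as well. The signal of a ribosomal protein gene against the negative control probe spanned a median of 4.75 log2 units over the 5 arrays in GFP+ cells and 6.05 in GFP- cells, where all genes had medians of 2.9 and 3.24. The span of the ratio had a median of 5.22 for ribosomal protein genes and 3.60 for all genes. A span of over 64-fold was seen for 29 of 79 genes (36.7%) in GFP+ cells and for 41 (51.9%) in GFP- cells, against 20.7% and 21.3% of all genes. Ribosomal protein genes were more often above background than probes of all kinds, and these spans were not compared at matched signal. A gene's deviation from its own mean correlated between GFP+ and GFP- signals of the same array at -0.130, 0.242, 0.132, 0.505 and 0.661 on replicates 1 to 5 across the 79 genes, which share array and probe. Across all 17640 genes the values were 0.117, 0.288, 0.378, 0.367 and 0.498, higher on replicates 1 to 3 and lower on replicates 4 and 5. Rps10, a small subunit protein, is an example of joint movement: its signal was 3020, 13.0, 1250, 4990 and 17.0 times the negative control in GFP+ cells, against 4900, 18.2, 1660, 8720 and 29.6 times in GFP- cells. Both channels were dim on replicates 2 and 5 and bright on the others, while the ratio stayed between -1.16 and -0.14.

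The large and the small subunit did not separate beyond the spread between arrays. On replicates 1 to 5 the median ratio of the large subunit was -0.12, 0.06, 1.12, 0.80 and 0.37, a mean of 0.45 ± 0.52 (SD, n = 5). For the small subunit it was 0.32, 0.31, 1.30, 0.13 and -0.32, a mean of 0.35 ± 0.59 (SD, n = 5). The large minus small difference was -0.44, -0.24, -0.17, 0.67 and 0.69, below 0 on 3 arrays and above 0 on 2, with a mean of 0.10 ± 0.54 (SD, n = 5). Its sign turned to -0.04 with an offset of 200 in place of 50 on the intensities, and to -0.04 and -0.05 without replicate 4 and without replicate 5. Counts were close as well: 30 of 47 large subunit genes and 20 of 32 small subunit genes had a mean above 0.

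Of the 79 genes, 6 had a single sign on all 5 arrays, 7.59% against 7.57% of all genes. Above 0 stood 4 of them, Rpl6, Rpl35a, Rpl36a and Rps7 (4.67% of all genes had this), and below 0 stood 2, Rpl21 and Rps10 (2.91% of all genes). With no normalization the share was 12.7% against 7.93% of all genes, and with an offset of 0 it was 5.06% against 7.61%. The values below describe these genes and do not set them apart. The means of these 6 kept their signs under the 8 alternatives of processing that used all arrays. They were picked for a single sign on the same arrays, so this outcome was nearly fixed in advance and is no support. With all tested probes averaged, the mean of Rpl36a was 0.01.

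Rpl6 encodes a large subunit protein. Its signal was 4920, 7200, 5180, 3660 and 84.3 times the negative control in GFP+ cells, against 2730, 422, 83.3, 270 and 32.2 times in GFP- cells. GFP+ was the brighter channel on every array, with log2 ratios of 1.04, 3.81, 6.25, 3.44 and 0.82. The mean was 3.07 ± 2.24 (SD, n = 5; unadjusted p 0.00962, adjusted p 0.827, limma). A second probe gave 1.44, -0.52, 4.92, 0.98 and 1.10, below 0 on replicate 2.

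Rps7, a small subunit protein mutated in some patients with Diamond-Blackfan anaemia in humans, had ratios of 0.98, 1.05, 2.89, 0.26 and 1.97. Its mean was 1.43 ± 1.01 (SD, n = 5; unadjusted p 0.0296, adjusted p 0.827 in limma), and all 5 arrays were above 0. It has 1 probe on the array, so no second reading was at hand.

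Rpl35a, another gene of Diamond-Blackfan anaemia in humans, had 4.05, 0.06, 2.50, 1.01 and 0.37, and replicate 2 was close to 0. The mean was 1.60 ± 1.66 (SD, n = 5; adjusted p 0.827, limma). Of its other tested probes 1 had a mean of 1.52 and 1 of -1.21, the last being above 0 on replicate 1 alone.

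Rpl36a, a large subunit protein, had the steadiest ratios above 0, at 0.29, 1.09, 0.25, 1.41 and 0.42 with a mean of 0.69 ± 0.53 (SD, n = 5; adjusted p 0.827, limma). Another tested probe of Rpl36a was as steady in the opposite direction, at -0.49, -1.19, -1.12, -1.05 and -0.83. No array had these probes on the same side of 0. With all its tested probes averaged, Rpl36a had a mean of 0.01.

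Among the genes below 0, Rps10 had -0.51, -0.68, -0.14, -0.55 and -1.16, a mean of -0.61 ± 0.37 (SD, n = 5; adjusted p 0.827, limma), the smallest SD of all 79. Rpl21 had -0.41, -0.89, -0.03, -0.24 and -3.53, a mean of -1.02 ± 1.44 (SD, n = 5; adjusted p 0.827, limma). Most of the Rpl21 mean came from replicate 5, where its signal was 364 times the negative control in GFP+ cells and 2510 times in GFP- cells.

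**Figure D3:**
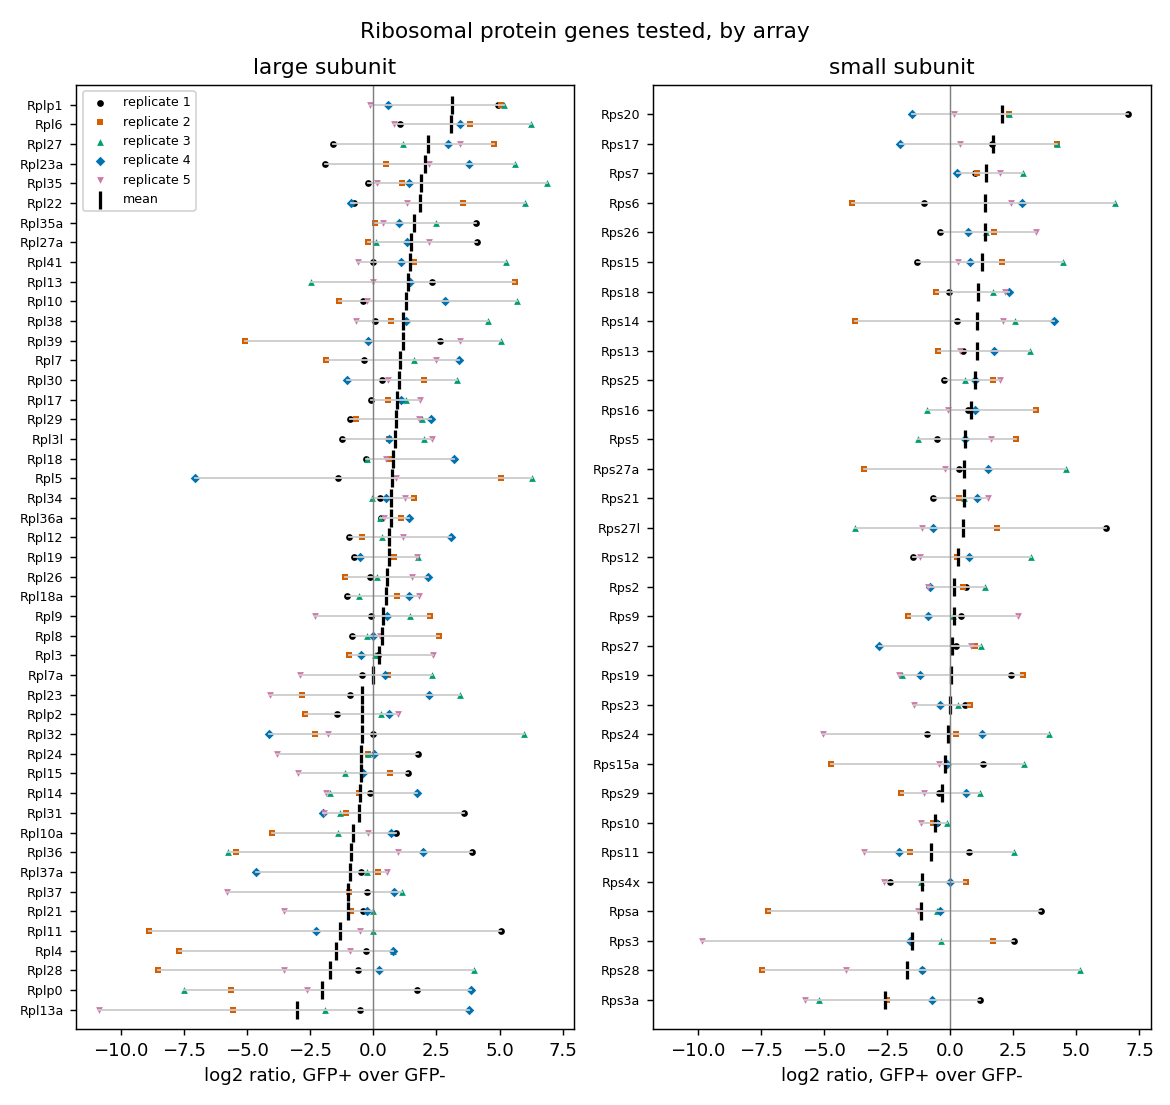
Each row is a ribosomal protein gene (78 of the 79 tested), ordered by mean within its subunit, the horizontal axis is the log2 ratio of GFP+ over GFP- cells, symbols are the 5 replicates, grey lines span them and black ticks are means. Most lines cross 0, and Rpl13a spans the widest range, from -10.87 on replicate 5 to 3.79 on replicate 4.

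The highest means belonged to genes with a strong array or several of them. Rplp1, with Rplp2 a protein of the acidic stalk that brings elongation factors to the ribosome, had 4.95, 5.06, 5.18, 0.59 and -0.15, high on replicates 1 to 3 and near 0 on the others. Its mean was 3.13 ± 2.67 (SD, n = 5; unadjusted p 0.0172, adjusted p 0.827, limma). The GFP- signal of Rplp1 was low, at 6.25, 58.1, 3.35, 1.74 and 11.6 times the negative control, and under background on replicate 4. The stalk partner Rplp2 had -1.43, -2.70, 0.30, 0.60 and 0.98, below 0 on replicates 1 and 2 where Rplp1 was high.

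Rplp0, the base of the same stalk, had 1.71, -5.62, -7.49, 3.88 and -2.63, a mean of -2.03 ± 4.80 (SD, n = 5). Rplp0 has 3 tested probes, listed on the array under the older name Arbp for those matched by accession. A second probe had a mean of -2.25, and the other had 2.14, 1.61, 0.50, -3.80 and 0.33 with a mean of 0.16. On replicate 4 the probes of this gene stood at 3.88, -2.09 and -3.80. With the brightest probe of each, Rplp0, Rplp1 and Rplp2 shared a sign on replicate 4 alone.

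Rpl27, Rpl23a and Rps20 followed among the highest means. Rpl27 had -1.59, 4.78, 1.19, 2.94 and 3.42 (mean 2.15 ± 2.45, SD, n = 5), with replicate 1 alone below 0. Its GFP- signal was low, at 42.1, 90.5, 1.56, 7.71 and 4.05 times the negative control, and under background on replicate 3. Rpl23a, which lies at the mouth of the exit tunnel, had -1.93, 0.49, 5.60, 3.79 and 2.20 (mean 2.03 ± 2.91, SD, n = 5), again with replicate 1 alone below 0, and its second probe had a mean of 2.00. Rps20 had 7.04, 2.33, 2.34, -1.52 and 0.16 (mean 2.07 ± 3.22, SD, n = 5), and here replicate 1 was the highest.

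Rpl13a had the lowest mean and the largest SD. Rpl13a is a large subunit protein, often used as a reference gene in quantitative PCR, and in human cells it can leave the ribosome to silence inflammatory transcripts. Its signal was 1070, 13.1, 2370, 2970 and 24.6 times the negative control in GFP+ cells, against 1970, 565, 10400, 158 and 28900 times in GFP- cells. The order of the channels thus turned on replicate 4. The ratios were -0.54, -5.56, -1.93, 3.79 and -10.87 (mean -3.02 ± 5.52, SD, n = 5; adjusted p 0.827, limma).

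Rps3a (Rps3a1 in current nomenclature) had 1.17, -2.48, -5.20, -0.72 and -5.75, with replicate 1 alone above 0. The mean was -2.60 ± 2.94 (SD, n = 5; unadjusted p 0.0486, adjusted p 0.827, limma). The second probe of Rps3a had 2.13, -2.04, 0.10, -1.30 and -6.38, also lowest on replicate 5. Rpl28 had -0.61, -8.54, 3.97, 0.22 and -3.55 (mean -1.70 ± 4.67, SD, n = 5), on both sides of 0. Rps28 had -1.10, -7.45, 5.13, -1.10 and -4.13 (mean -1.73 ± 4.65, SD, n = 5), and the means of its 3 probes ran from -1.73 to 0.86.

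Proteins with a role in growth signalling or surveillance showed the same lack of a common direction. Rps6, the substrate of S6 kinase downstream of mTORC1, had -1.05, -3.89, 6.55, 2.86 and 2.42 (mean 1.38 ± 3.99, SD, n = 5), below 0 on replicates 1 and 2 and above 0 on the others. Rpl5 and Rpl11 bind 5S rRNA together and, when free of the ribosome, inhibit Mdm2, the ubiquitin ligase of p53. Rpl5 had -1.40, 5.06, 6.28, -7.08 and 0.89 (mean 0.75 ± 5.36, SD, n = 5). Rpl11 had 5.06, -8.88, 0.0001, -2.26 and -0.55 (mean -1.32 ± 5.03, SD, n = 5), but this probe was above background on 3 arrays in GFP+ cells and 3 in GFP- cells. On replicates 3 and 5 this Rpl11 probe was at background in both channels. A second probe of Rpl11 had -2.56, 0.07, 0.63, 0.32 and 0.56, the other way on replicates 1 and 2, and was above background on 5 arrays in GFP+ cells and 1 in GFP- cells.

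Genes linked to inherited or acquired anaemia in humans, Rps19 and Rps14, had means of 0.04 ± 2.40 and 1.07 ± 3.02 (SD, n = 5). Rps19 was above 0 on replicates 1 and 2 and below 0 on replicates 3 to 5, and Rps14 was below 0 on replicate 2 alone, at -3.75. Rpl38, which mouse embryos need for translation of a subset of Hox transcripts, had 0.06, 0.71, 4.53, 1.29 and -0.69 (mean 1.18 ± 2.01, SD, n = 5). Rpl10, which joins the large subunit late in its assembly, had -0.39, -1.38, 5.67, 2.83 and -0.27 (mean 1.29 ± 2.91, SD, n = 5), with a second probe at -0.43, -1.09, 6.14, 2.31 and 0.67. Rpl22, which supports T-cell development in mice, had a mean of 1.85 ± 2.95 (SD, n = 5). Rps4x, the X-linked form of its protein, had -1.10 ± 1.42, Rps27a, made as a fusion with ubiquitin, 0.56 ± 2.90, and Rpsa, also known as the laminin receptor precursor, -1.16 ± 3.89 (SD, n = 5). After Rps10 and Rpl36a, Rpl34 had the smallest SD, with 0.25, 1.61, -0.07, 0.50 and 1.26 (mean 0.71 ± 0.70, SD, n = 5), so the steadier genes were above 0 in some cases and below in others.

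Paralog pairs differed in pattern. Rpl3, a core protein near the peptidyl transferase centre, had 0.17, -0.95, 0.06, -0.47 and 2.37 (mean 0.24 ± 1.27, SD, n = 5). Rpl3l, its striated muscle counterpart, had -1.26, 0.60, 2.02, 0.63 and 2.33 (mean 0.86 ± 1.42, SD, n = 5), and was above background on 4 arrays in GFP+ cells and 2 in GFP- cells. Rps27 had 0.24, 0.98, 1.21, -2.83 and 0.81 (mean 0.08 ± 1.67, SD, n = 5). Rps27l, its p53-responsive paralog, had 6.16, 1.87, -3.76, -0.66 and -1.11 (mean 0.50 ± 3.74, SD, n = 5). Rps27 and Rps27l had the same sign on replicates 1, 2 and 4.

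Probes named for the same gene were compared next, since they met the same labelled cDNA on each array. No probe sequences were at hand, so whether they overlap or read the same transcript was not tested. Among 33 ribosomal protein genes with at least 2 tested probes, the ratios of the brightest and the second probe correlated at 0.323, 0.454, 0.671, 0.384 and 0.657 on replicates 1 to 5. For 6223 genes of all kinds the values were 0.209, 0.193, 0.213, 0.172 and 0.138. Both series are descriptions across genes that share 1 array. Among probes above background everywhere, the values were 0.371, 0.607, 0.697, 0.388 and 0.740 for 26 ribosomal protein genes and 0.243, 0.235, 0.267, 0.212 and 0.142 for 2319 genes. The 2 probes had the same sign for 20 to 23 of the 33 genes on single arrays.

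Some genes, picked here after their values were seen, gave closely matching readings through swings of many log2 units. Rpl36 had 3.92, -5.44, -5.76, 1.95 and 0.96 with 1 probe and 2.35, -5.64, -5.94, 3.62 and 1.25 with the other. Its mean was -0.87 with either. Other genes matched less well. Rps3, whose protein also acts in DNA repair, was lowest on replicate 5 with both probes, at -9.84 and -4.13, and the probes had opposite signs on replicates 2 and 4.

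Over all tested probes, 22 of the 33 genes had means of a single sign and 11 had means of both signs. The widest gaps were those of Rpl35a (from -1.21 to 1.60), Rps28 (from -1.73 to 0.86) and Rplp0 (from -2.25 to 0.16). Whether such probes read processed copies or transcript ends was not tested.

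**Figure D4:**
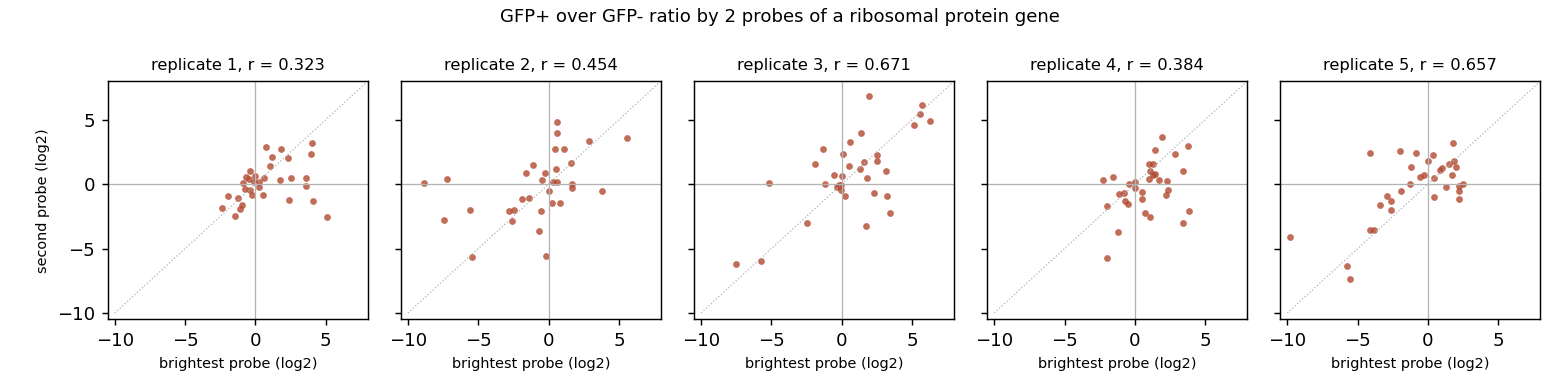
Each panel is 1 replicate and each point 1 of 33 ribosomal protein genes, with the log2 ratio of GFP+ over GFP- cells by the brightest probe on the horizontal axis and by the second probe on the vertical axis; the dotted line marks equal values. The correlation across genes runs from 0.323 on replicate 1 to 0.671 on replicate 3.

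Replicate 1 differed from the others in many genes of the papilla, and this touched the ribosomal protein genes. On replicates 2 to 5, 18 of 79 ribosomal protein genes had a single sign, 22.8% against 25.5% of all genes. Of those 18, 12 had the opposite sign on replicate 1, and of 4483 such genes of all kinds 3152 did, shares of 66.7% and 70.3%. Without replicate 1, limma again called 0 of 79 (0% of all genes), with a lowest adjusted p of 0.321 and 10 genes at an unadjusted p under 0.05, or 12.7% against 11.5% of all genes. Rpl27 had 3.08 ± 1.48, Rpl31 had -1.58 ± 0.45 and Rps25 had 1.31 ± 0.64 on these arrays (SD, n = 4; adjusted p 0.321, 0.334 and 0.403, limma). Rpl31 and Rps25 were picked after their values were seen, and the GFP- signal of Rpl27 was under background on replicate 3. The median of the 6 principal cell markers was -2.96, 4.50, 3.08, 0.86 and 0.23 on replicates 1 to 5, that of 4 intercalated cell markers -2.66, 3.13, 2.18, 0.97 and 1.72, and that of 6 thin limb markers -0.93, 1.16, 2.48, 2.33 and 1.16. Other cell types were above 0 on replicate 1: 4 erythroid markers had medians of 1.65, -0.84, -1.33, -1.38 and -0.09, 4 endothelial markers 0.73, -0.88, 0.46, -1.09 and -1.16, and 6 fibroblast markers 0.31, -0.34, -0.34, -1.05 and -1.09. The 6 urothelial markers had 0.53, -0.71, 0.66, 0.18 and 0.26, and the 6 leukocyte markers -0.53, 0.32, -0.23, -0.13 and -0.21. The median of the ribosomal protein genes was also below 0 on replicate 1 alone, but only just, at -0.08. For the small subunit the median was 0.32 on replicate 1 and below 0 on replicate 5 alone, at -0.32. The mean over the 79 genes was 0.49 on replicate 1, and -0.45 and -0.50 on replicates 2 and 5. The part of the tubule cell types in the result was not tested.

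Other genes of translation were set beside the ribosomal proteins, and limma called 0 genes in each of these lists. For the counts given per list, 5% of all genes had an unadjusted p under 0.05 and 49.8% a mean above 0. Of 34 initiation factors tested, 21 had a mean above 0, with a median of 0.61 and 3 genes at an unadjusted p under 0.05. Eif3d, a cap-binding subunit of eIF3, was below 0 on all 5 arrays (mean -2.35 ± 2.11, SD, n = 5; adjusted p 0.827, limma), and Eif3j1, a loosely bound subunit of the same factor, had 2.35 ± 2.12 (SD, n = 5). Of 11 elongation and termination factors 5 were above 0 (median -0.12, 1 at an unadjusted p under 0.05). Abce1, which splits ribosomes after termination, had 2.74, -0.21, 2.44, 2.70 and 2.83 (mean 2.10 ± 1.30, SD, n = 5; unadjusted p 0.00989, adjusted p 0.827, limma). Eef1d, a subunit of the exchange factor for eEF1A, had 2.38 ± 2.70 (SD, n = 5).

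Genes that control translation through mTORC1 had 13 of 23 means above 0, with a median of 0.12 and 2 at an unadjusted p under 0.05. Deptor, an inhibitor bound to mTOR, was above 0 on all 5 arrays, at 5.31, 0.81, 4.97, 0.70 and 2.24 (mean 2.81 ± 2.22, SD, n = 5; unadjusted p 0.0142, adjusted p 0.827, limma). Its GFP- channel was above background on 2 arrays. Tsc1, a subunit of the complex that restrains mTORC1, had 1.65 ± 1.62 (SD, n = 5). In this list 5 of 23 genes had a single sign on all 5 arrays, where 7.57% of all genes did. Some of them were close to 0 on replicate 2, with Rraga at 0.06, Rps6ka3 at 0.03 and Rps6ka1 at -0.0009.

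Genes of ribosome assembly and rRNA synthesis had 19 of 35 means above 0 (median 0.16, 3 at an unadjusted p under 0.05). Utp14a, of the small subunit processome, had -3.53, -1.57, -1.41, -1.46 and -1.95 (mean -1.99 ± 0.89, SD, n = 5; unadjusted p 0.00538, adjusted p 0.827, limma). Nhp2, of the particles that pseudouridylate rRNA, had -0.98, -1.99, -1.36, -1.89 and -3.64 (mean -1.97 ± 1.02, SD, n = 5; unadjusted p 0.00729, adjusted p 0.827, limma). Both were below 0 on every array with SDs under the median of all genes. In the list of 5S particle and p53 surveillance genes 3 of 8 were above 0 (median -0.18, none at an unadjusted p under 0.05 in limma), with Trp53 at -1.31 ± 1.22 and Gtf3a, the 5S gene factor TFIIIA, at 1.87 ± 2.42 (SD, n = 5). The GFP- channel of Gtf3a was above background on 1 array.

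Proteins of the mitochondrial ribosome, encoded by a separate set of nuclear genes, had 21 of 45 large and 11 of 28 small subunit means above 0, with medians of -0.19 and -0.31. These counts are over fixed lists, not over the 75 genes taken by name above. At an unadjusted p under 0.05 were 3 large subunit and 4 small subunit genes. Mrps15 was above 0 on all 5 arrays (mean 2.61 ± 1.34, SD, n = 5; unadjusted p 0.00371, adjusted p 0.827, limma). Mrps14 had -4.75 ± 4.97, Mrpl24 2.93 ± 2.51 and Mrpl18 2.28 ± 2.36 (SD, n = 5). Mrps14 was above background on 2 arrays in GFP+ cells and 3 in GFP- cells, and Mrpl18 on 3 and 3. The median of the mitochondrial large subunit was 1.65, -0.21, -0.45, -0.29 and 0.01 on replicates 1 to 5, highest on replicate 1, where the cytosolic large subunit was lowest.

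Ribosome-associated chaperones and stress factors had 5 of 14 means above 0 (median -0.28, 1 at an unadjusted p under 0.05). Ltn1, the ubiquitin ligase of stalled large subunits, had 1.33 ± 1.87 (SD, n = 5). Of 9 tested paralogs and related genes, 2 of which the name rule holds too, 5 were above 0 and 1 had an unadjusted p under 0.05. Mrpl1 is in this list and in that of the mitochondrial large subunit. Rsl1d1 was above 0 on all 5 arrays (3.94, 3.29, 3.21, 0.57 and 1.06, with a mean of 2.41; unadjusted p 0.00769, adjusted p 0.827, limma), and Rpl22l1, the paralog of Rpl22, had -1.79 ± 1.90 (SD, n = 5) where Rpl22 had 1.85 ± 2.95.

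**Figure D5:**
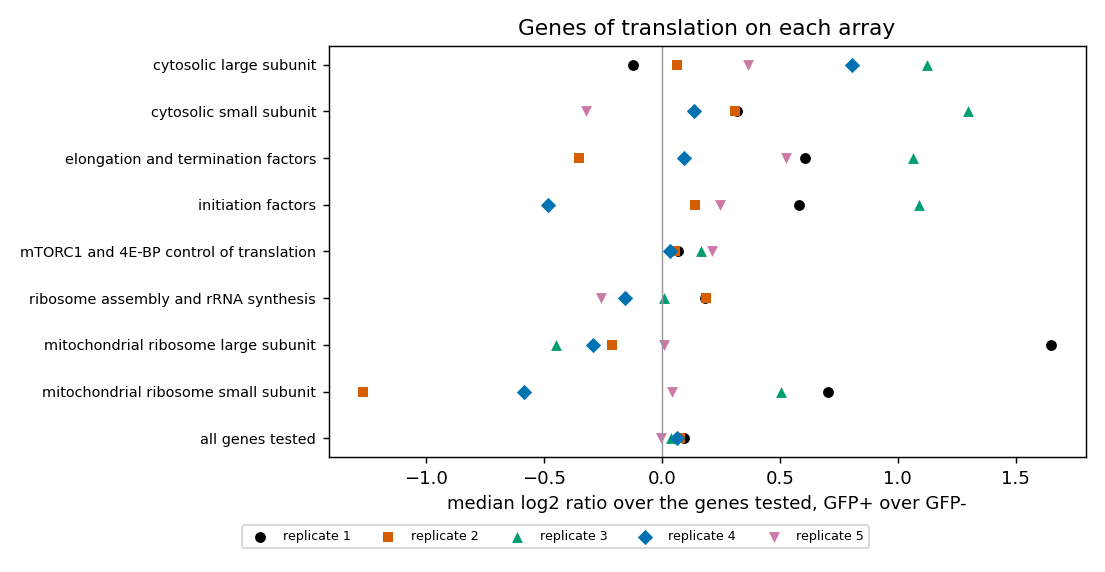
Rows are gene groups of translation, the horizontal axis is the median log2 ratio of GFP+ over GFP- cells over the group's tested genes, and symbols are the 5 replicates. Replicate 3 is the highest array for both cytosolic subunits (1.12 and 1.30), and replicate 1 for the large subunit of the mitochondrial ribosome (1.65).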

How the data were processed

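RNA of 5 biological replicates was measured on 2-colour Agilent arrays. Agilent Feature Extraction made the values, per the submitters' processing notes; the sources used here do not give its version. Per the file headers, the deposited tables hold for each probe a linear intensity in each channel, a log10 ratio of the channels, and a p-value. The deposited p-value was not used. The deposited log10 ratio served as an alternative. The sources do not tie the first intensity to a dye; GFP+ over GFP- was taken as the second over the first, since the labels put GFP+ in Cy5, Agilent ratios are by convention Cy5 over Cy3, and the names of replicates 3 to 5 list negative cells ahead of positive ones. No dye was swapped, so a constant dye effect is part of each ratio, and the number of arrays limits the precision.

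An offset of 50 was added to the intensities before log2, and loess (span 0.3, control probes at weight 0) was run within each array. A probe was tested if 1 channel or both reached 3 times the negative control on 3 or more of 5 arrays, the brightest standing for its gene. Limma 3.58.1 (R 4.3.3; lmFit and eBayes) gave a two-sided test of each gene's ratios against 0, and p-values were adjusted by Benjamini-Hochberg over every gene tested, with 0.05 as the threshold. Beside the 34381 probes with a symbol, 5 that only the platform annotation names as ribosomal protein genes were left out. On simulated ratios with the spread of these 17577 genes, 0 of 50 genes changed by 1 log2 unit, 0 of 50 by 2, 9 of 50 by 4 and 29 of 50 by 6 were recovered. Of 17377 unchanged genes, 2 were called. With 0.25 of that spread, 40 of 50 genes changed by 2 were recovered. The simulation drew each gene independently from a normal distribution at its observed SD, so it lacks shifts that genes share.

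Genes were named by rule: those with 1 sign on all 5 arrays, the 5 highest and 5 lowest means, the 3 smallest and 3 largest SDs, a fixed set, and 2 of lowest unadjusted p per list of other translation genes. Values of some genes are not reported here. Members and lists were chosen with earlier results of these data known. Alternatives were the normalization, the offset, the filter, the probe rule and each array left out. SD is the spread over arrays; log2 medians are over genes' means unless an array is named.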

Additional observations from a re-analysis of the deposited data

Results flagged for a closer look

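Among 72 items, 8 had 1 array far from the other 4 by Dixon's criterion (a gap over 0.71 of the whole range); chance flags about 1 in 20 groups. Of the ribosomal protein genes, Rpl21 had -3.53 on replicate 5, against -0.89 to -0.03 on the other arrays. Rps27 had -2.83 on replicate 4, against 0.24 to 1.21 on the others. Of the other genes of translation, Abce1 had -0.21 on replicate 2 (the others 2.44 to 2.83) and Eif3d had -5.96 on replicate 3 (the others -1.99 to -0.44). On replicate 1, Utp14a had -3.53 (the others -1.95 to -1.41) and Gtf3a had 6.11 (the others 0.36 to 1.58). The median of the list of 5S particle and p53 surveillance genes was 0.52 on replicate 2, against -0.07 to 0.04 on the others. The median of the mitochondrial large subunit was 1.65 on replicate 1, against -0.45 to 0.01 on the others.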

How the results depend on the processing

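No alternative gave a called ribosomal protein gene in limma, and their lowest adjusted p ran from 0.321 (without replicate 1) to 0.975 (without replicate 5). The count of genes with a mean above 0 stayed between 48 and 52 under the alternatives that kept all arrays and ran from 45 to 54 with single arrays left out. The median ratio of the ribosomal protein genes ran from 0.28 to 0.68 and their median SD from 1.82 to 2.15 with single arrays left out. The number with 1 sign on all arrays was 10 with no normalization (12.7% against 7.93% of all genes), 10 with the authors' deposited log10 ratio (12.7% against 7.77%), 4 with an offset of 0 (5.06% against 7.61%) and 8 to 18 with single arrays left out (18 without replicate 1, 13 without replicate 4), where 4 arrays rather than 5 have to match; the cause of the first 3 was not tested. The number at an unadjusted p under 0.05 was 10 without replicate 1, 7 without replicate 4 and 2 without replicate 5. The large minus small difference ran from -0.05 to 0.23 with single arrays left out. The most genes changed the sign of their mean without replicate 2 (16 of 79) and without replicate 5 (10 of 79). The test was itself paired, because each array pairs both populations and its ratio was tested against 0. With 5 arrays and these SDs, changes of 2 log2 units were not recovered in simulated data, in which genes varied independently of each other.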
